A study of Mus musculus with 12 samples.

Results

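The 10 genes described here are the AP-1 genes Fos, Fosb, Fosl1, Fosl2, Jun and Junb, the zinc finger genes Egr1 and Egr2, the early response gene Ier2, and Myc. They were chosen by name, as every gene probe on the array whose gene name, current or older, is in that list, and they are 10 of 20314 genes tested. Earlier results of these data were known when they were chosen. The 10 genes have 15 probes on 51 spots of each array, of 41174 gene probes on 43379 gene spots in all. All 15 probes and all 10 genes passed the filter on dim probes.

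Each of 12 Agilent 2-colour arrays held the RNA of 1 mouse mammary tumor labelled ShcA-null, tumors 1 to 8, together with the RNA of a pool of NIC tumors. NIC tumors express an activated Neu (ErbB2) receptor and Cre recombinase from a single transcript under the mammary promoter written MMPV in the design text and known as MMTV, so Cre is present in the pool as well as in the tumors labelled ShcA-null. The design text calls the tested tumors NIC with SHC null. ShcA, the product of Shc1, is an adaptor that carries signals from receptor tyrosine kinases to Ras. The promoter acts in mammary epithelium, so the vessels, fibroblasts and leukocytes of a tumor would keep ShcA. Age, strain, the deleted part of Shc1 and the number of tumors in the pool are not given in the sources used here. On the first array of each of the 8 tumors the tumor RNA carried Cy5; first arrays are numbered 1 to 8 after their tumors. Tumors 1 to 4 have a further array each with the dyes swapped, 4 in all. Every value below is a log2 ratio of tumor over pool, so a positive value is higher in the tumor.

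Immediate early genes are transcribed within minutes of a growth factor signal, without new protein synthesis, because the factors that switch them on are already present in the cell. ERK, at the end of the Ras pathway, phosphorylates the Elk factors that sit with SRF on the promoters of Fos and Egr1. Fos and Jun proteins pair to form AP-1, while Egr1, Egr2 and Myc bind DNA at other motifs and carry the signal on to later genes. Myc is a mediator of growth downstream of many receptors, ErbB2 among them.

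The labels of the swapped arrays did not match the data in 3 of 4 cases. Over all probes kept, the swapped array labelled tumor 2 had r = 0.817 with the first array of tumor 3 and r = 0.142 with that of tumor 2. The swapped array labelled tumor 4 had r = 0.681 with the first array of tumor 8 and r = 0.294 with that of tumor 4. That labelled tumor 3 was closest to tumor 4 (r = 0.392, against 0.134 for tumor 3), and that labelled tumor 1 was closest to tumor 1 (r = 0.440). The targeted gene, Shc1, checks the labels too. It read 0.33, -0.03, -2.05, 0.58, 0.71, 0.24, 0.52 and 0.30 on first arrays 1 to 8, with 0.59, -2.22, 0.74 and 0.45 on swapped arrays labelled 1 to 4. It lay clearly below the pool in tumor 3 alone, and on the swapped array that resembles tumor 3. A probe outside the deleted part would check nothing, and which part was deleted is not stated, so the tumors are called "labelled ShcA-null" throughout. Erbb2 averaged 0.13 ± 0.68 on its brightest probe and -0.40 ± 1.31 on the other (SD, n = 8 tumors).

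Both arrays of tumors 1 to 4 were averaged as labelled, and the mean over the 8 tumors was tested against 0 with limma. The p-values were adjusted over all genes by the Benjamini-Hochberg method, and a gene is called at an adjusted p under 0.05. Where a swapped label is wrong, the averaged value mixes the RNA of different tumors. The RNA of tumor 3 may then enter the values of both tumor 2 and tumor 3. The 8 values may therefore not be independent, and the means, SDs and tumor counts of the main fit carry this limit. The pool counts as 1 control sample, so variation among control tumors does not enter the test, and all ratios share that pool. The labels do not say that the 8 tumors came from separate animals, so a p-value reflects how far these samples differ from each other, which may be technical. Beside it stand 2 checks of the swapped arrays: the first arrays alone, and a limma fit (the dye fit) to the 12 arrays with a term for the dye, in which each swapped array was paired with the first array it resembled most among the 8 tumors. That pairing was chosen after seeing the data.

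Of the 10 genes, 2 were called higher in the tumors labelled ShcA-null (Fosb and Myc) and 0 lower. Of all genes tested, 17.2% were called, 6.61% higher and 10.6% lower. At an unadjusted limma p under 0.05, 4 of the 10 (Fos, Fosb, Fosl1 and Myc) were higher and 0 lower, against 14.3% of all genes higher and 18.9% lower at that threshold. In the dye fit, Fos and Myc were called, against 8.09% of all genes. Myc was therefore called in both fits, while Fos and Fosb were each called in 1 of them.

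**Figure D1:**
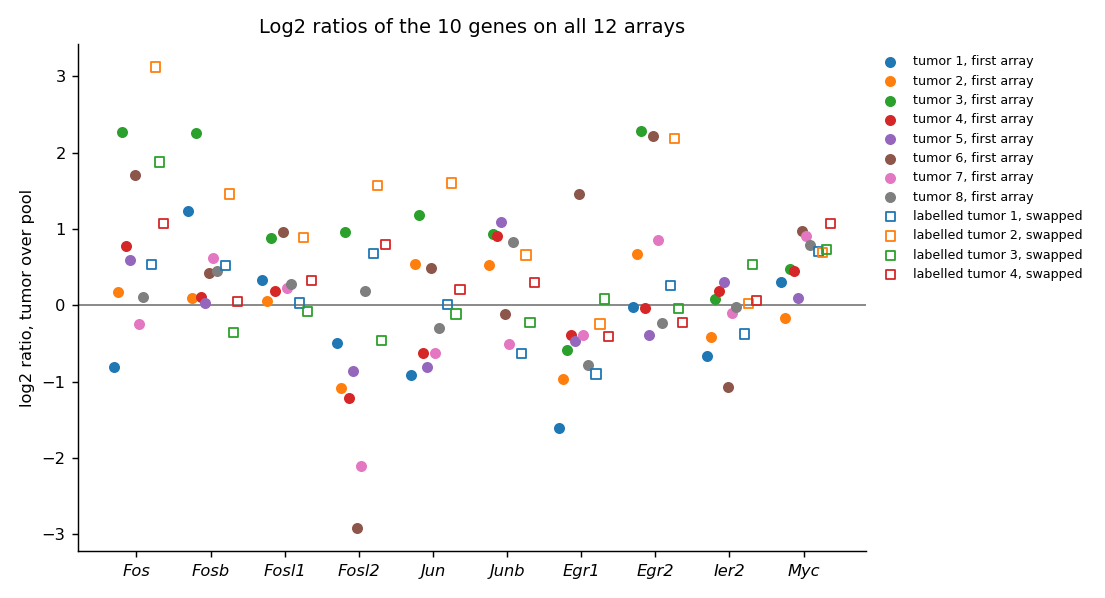
Log2 ratio of tumor over pool (vertical axis) for the 10 genes (horizontal axis, the brightest probe of each) on every array. Filled circles are the first arrays of tumors 1 to 8 and open squares the swapped arrays as labelled, in the colour of the tumor; the line at 0 is the pool. Fos spans -0.81 to 2.27 on the first arrays, while Myc stays between -0.16 and 0.98.

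Fos encodes the founding member of the AP-1 proteins, which cannot bind DNA without a Jun partner. Its probe (A_52_P262219, 10 spots, mm7 chr12:83478431-83478490) read -0.81, 0.18, 2.27, 0.78, 0.59, 1.70, -0.25 and 0.11 on first arrays 1 to 8. On the swapped arrays labelled 1 to 4 it read 0.53, 3.12, 1.88 and 1.07. Tumors 3 and 6 were highest, with tumor 3 at 4.81 times the pool, and tumors 1 and 7 were below the pool on their first arrays. Fos was above the pool on 10 of 12 arrays.

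Over the 8 tumors Fos averaged 0.83 ± 0.90 (SD, n = 8), a 1.78-fold higher level than in the pool, and was not called (limma adjusted p = 0.0706). Within the slide of the first arrays of tumors 1 to 4 its mean was 0.60 (limma adjusted p = 0.445), and within that of tumors 5 to 8 it was 0.54 (limma adjusted p = 0.421). The 10 Fos spots of an array had a median SD of 0.044, which covers the error within an array and not that between arrays. Background-corrected signals of Fos ran from 2850 to 29960 for tumor RNA and from 3479 to 7469 for the pool.

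The Fos readings differed between first and swapped arrays. When each swapped array was set against the first array it resembled most, the swapped array was higher in 4 of 4 pairs, by 0.86 to 1.34. Paired as labelled, the differences ran from -0.39 to 2.94. The first arrays alone gave a mean of 0.57 ± 1.01 (SD, n = 8; limma adjusted p = 0.221). The dye fit gave 1.10 (limma adjusted p = 0.0316), and with labelled pairs it gave 1.11 (limma adjusted p = 0.0163). For the 4 swapped arrays dye and slide cannot be told apart.

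**Figure D2:**
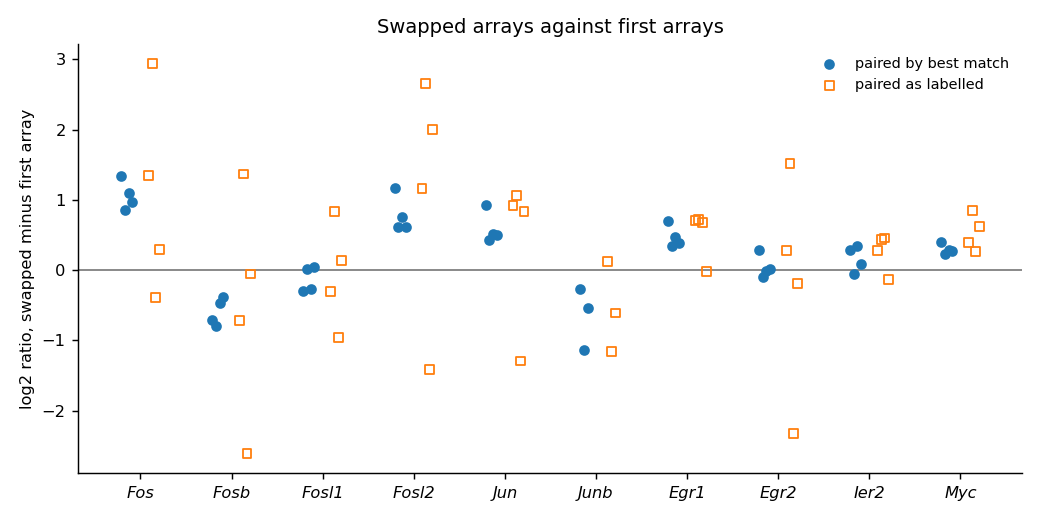
Log2 ratio on each swapped array minus that on the first array paired with it (vertical axis), for the brightest probe of each of the 10 genes. Filled circles use the first array that each swapped array resembles most, and open squares the labelled pairs. The best-matching pairs of Fos lie between 0.86 and 1.34 and those of Fosb between -0.79 and -0.39.

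Fosb, a Fos relative known for slow accumulation of a truncated form in neurons, was called higher. On first arrays 1 to 8 its probe (A_51_P138378, mm7 chr7:16985502-16985561) read 1.24, 0.09, 2.25, 0.11, 0.03, 0.42, 0.62 and 0.44, and on the swapped arrays labelled 1 to 4 it read 0.52, 1.46, -0.36 and 0.05. All 8 first arrays were above the pool, tumors 2, 4 and 5 by little. The mean was 0.52 ± 0.35 (SD, n = 8; limma adjusted p = 0.0224), a 1.44-fold higher level. Fosb was read lower on the swapped array in 4 of 4 best-matching pairs, with differences from -0.79 to -0.39. The first arrays alone gave 0.65 ± 0.76 (SD, n = 8; limma adjusted p = 0.0837), and the dye fit 0.37 (limma adjusted p = 0.309). The smaller SD of the main fit, 0.35, comes with averaging as labelled. For tumor 3 that joined 2.25 and -0.36, from arrays that do not resemble each other, into 0.95. The call was also lost without tumor 1, 2 or 3, at limma adjusted p-values of 0.0506, 0.0535 and 0.0567. Tumors were left out by label, so the RNA of tumor 3 may have remained under tumor 2.

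Fosl1 (Fra-1) is a Fos-like protein without the strong activation domain of Fos, often found in invasive breast cancer cells. It read 0.33, 0.06, 0.88, 0.19, 0.96, 0.22 and 0.28 on first arrays 1, 2, 3, 4, 6, 7 and 8. The spot of tumor 5 had an outlier flag and was left out. All 7 tumors were above the pool, tumors 3 and 6 the most. The mean was 0.40 ± 0.27 (SD, n = 7) and missed the threshold (limma adjusted p = 0.0513). The probe was dim, well above background for tumor RNA on 11 and for pool RNA on 9 of 12 arrays. Fosl1 was called with outlier spots kept (0.45, limma adjusted p = 0.0261, 8 tumors), and also with no filter on dim probes (limma adjusted p = 0.0399), with Feature Extraction signals (0.0205), with the authors' value table (0.0221) and without tumor 6 (0.042). Fosl1 averaged 0.35 in the dye fit and was not called (limma adjusted p = 0.193). It was also not called with median centring (limma adjusted p = 0.105), first arrays alone (0.0698) or slide as a block (0.0861). Counted together, it was called in 4 of 12 other settings and in 1 of 8 with a tumor left out.

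Fosl2 (Fra-2), another Fos-like partner of Jun proteins, was the most uneven of the genes. Its bright probe (A_52_P484903, mm7 chr5:31189767-31189826) read -0.49, -1.09, 0.96, -1.21, -0.86, -2.92, -2.10 and 0.19 on first arrays 1 to 8. On the swapped arrays labelled 1 to 4 it read 0.68, 1.57, -0.46 and 0.79. The swapped array was higher in 4 of 4 best-matching pairs, by 0.61 to 1.16. Tumor 6 stood 7.55-fold below the pool and tumor 3 stood 1.94-fold above it. Extreme readings in tumor 6 were not particular to Fosl2. Tob1 (-3.51), Cdk4 (-3.43) and Creb1 (-3.36) were far below the pool there, and Mmp10 (2.47) was far above it. The cause was not tested. The mean was -0.67 ± 1.21 (SD, n = 8; limma adjusted p = 0.243). The second probe, 4536 bases away and dim, averaged 0.09 ± 0.37 (SD, n = 8; limma adjusted p = 0.696 over probes). Both probes had the same sign on 5 of 12 arrays, so no direction can be given for Fosl2.

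Jun encodes the AP-1 protein that can bind DNA as a pair with itself as well as with Fos. Its probe (A_51_P325914, 10 spots, mm7 chr4:94441779-94441838) read -0.92, 0.54, 1.18, -0.62, -0.81, 0.48, -0.62 and -0.29 on first arrays 1 to 8, and 0.01, 1.60, -0.11 and 0.21 on the swapped arrays labelled 1 to 4. Tumors 2, 3 and 6 were above the pool and the other 5 below it. The mean was -0.04 ± 0.66 (SD, n = 8; limma adjusted p = 0.915), and its sign depended on the setting, with 0.16 in the dye fit and 0.23 with median centring. The median SD over the spots of an array was 0.047, while best-matching swapped and first arrays differed by 0.42 to 0.92.

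Junb, which can restrain Jun at some promoters, has a pair of overlapping probes whose starts lie 38 bases apart. The brighter (A_51_P159194) averaged 0.28 ± 0.63 and the other -0.01 ± 0.51 (SD, n = 8 each). Neither was called, at limma adjusted p-values of 0.363 over genes and 0.977 over probes. On first arrays the brighter ran from -0.51 in tumor 7 to 1.09 in tumor 5, and the spot of tumor 1 was left out for its outlier flag. The other read 0.91 in tumor 3, its highest, and -0.82 in tumor 7. On first arrays tumor 7 was the lowest for each, of 7 and 8 tumors, while the swapped array labelled tumor 1 read -0.63 and -0.61.

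Egr1 is a zinc finger factor that ERK signalling induces. Its probe (A_51_P367866, mm7 chr18:35240842-35240901) read -1.61, -0.97, -0.59, -0.39, -0.47, 1.46, -0.39 and -0.79 on first arrays 1 to 8, and -0.90, -0.25, 0.08 and -0.41 on the swapped arrays labelled 1 to 4. It was below the pool on 10 of 12 arrays, and in 7 of 8 tumors. Tumor 6 was the exception, 2.75-fold above the pool. The mean was -0.34 ± 0.79 (SD, n = 8; limma adjusted p = 0.37). Without tumor 6 it was -0.59 (limma adjusted p = 0.0134), and without any other tumor it ran from -0.35 to -0.21 and was not called. Median centring moved the mean to 0.05 (limma adjusted p = 0.946), the 1 of 14 other settings with a mean above 0. Feature Extraction signals gave -0.29 and the authors' value table -0.32 (limma adjusted p = 0.492 and 0.438). The direction was thus not the same under every scaling.

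Egr2 (Krox20) is best known for its role in myelinating Schwann cells and in hindbrain segmentation, and is induced by growth factors in many cells. Its probe (A_51_P173043, 10 spots, mm7 chr10:67145376-67145435) read -0.02, 0.67, 2.29, -0.03, -0.39, 2.22, 0.86 and -0.24 on first arrays 1 to 8, and 0.26, 2.19, -0.05 and -0.22 on the swapped arrays labelled 1 to 4. Tumors 3 and 6 stood apart, tumor 3 at 4.88 times the pool, and tumors 1, 4, 5 and 8 were just below the pool. The mean was 0.62 ± 0.93 (SD, n = 8; limma adjusted p = 0.167). Best-matching arrays gave nearly the same reading, with differences from -0.10 to 0.28, and the first arrays alone gave 0.67 ± 1.07 (SD, n = 8).

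Ier2 encodes a small nuclear protein induced early after stimulation. Its bright probe (A_51_P481325) read -0.66, -0.42, 0.08, 0.19, 0.31, -1.07, -0.10 and -0.03 on first arrays 1 to 8, with tumor 6 lowest. The mean was -0.15 ± 0.46 (SD, n = 8; limma adjusted p = 0.542), and 0.30 (limma adjusted p = 0.203) with median centring. The second probe was well above background for tumor RNA on 6 of 12 arrays, against 12 for the pool, and averaged -0.33 ± 0.45 (SD, n = 7; limma adjusted p = 0.222 over probes). Both probes had the same sign on 7 of 11 arrays.

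Myc, the growth-promoting transcription factor, was called higher and had the smallest adjusted p of the 10 genes. Its brightest probe (A_51_P102096, 10 spots, mm7 chr15:62064256-62064316) read 0.31, -0.16, 0.47, 0.45, 0.10, 0.98, 0.90 and 0.80 on first arrays 1 to 8, and 0.71, 0.69, 0.73 and 1.07 on the swapped arrays labelled 1 to 4. Tumors 6, 7 and 8 were highest, tumor 5 was near the pool and tumor 2 just below it. The mean was 0.61 ± 0.31 (SD, n = 8; limma adjusted p = 0.00911), a 1.53-fold higher level. Its SD over tumors was at the 26.6th percentile of all genes, against the 85.1th for Fos, the 86.6th for Egr2 and the 95th for Fosl2. The first arrays alone gave 0.48 ± 0.40 (SD, n = 8; limma adjusted p = 0.0416) and the dye fit 0.63 (limma adjusted p = 0.0165). This probe read higher on the swapped array in 4 of 4 best-matching pairs, by 0.225 to 0.398, and in 4 of 4 labelled pairs. Myc was called without each tumor in turn, at means from 0.56 to 0.69. Tumors were left out by label, so the RNA of tumor 3 or 8 may have remained under another label. Within the slide of the first arrays of tumors 1 to 4 the mean was 0.27 (limma adjusted p = 0.305), and within that of tumors 5 to 8 it was 0.69 (limma adjusted p = 0.174).

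The other Myc probes gave different pictures. The probe that starts 99 bases before the first (A_52_P108346, mm7 chr15:62064157-62064216) followed it closely over the 12 arrays and was above the pool on 12 of 12. It averaged 0.81 ± 0.33 (SD, n = 8; limma adjusted p = 0.00465 over probes). The probe that starts 591 bases before the first (A_52_P278549, mm7 chr15:62063665-62063724) read 1.22, 0.64, 0.92, 1.25, 0.97, -1.93, 0.09 and 1.38 on first arrays 1 to 8. It was above the pool on 11 of 12 arrays and far below it in tumor 6, where the other probes read 0.98 and 1.25. It averaged 0.44 ± 1.03 (SD, n = 8; limma adjusted p = 0.381 over probes). Over 12 arrays its r with the brightest probe was -0.415, a description over arrays that share the pool. In best-matching pairs A_52_P278549 read lower on the swapped array in 4 of 4, with differences from -0.81 to -0.57. A_52_P108346 read higher there in 4 of 4, by 0.37 to 0.58. All 3 probes are assigned to the same Myc transcript in the files, and no gene model of build mm7 was used to place them in exons. The low reading of A_52_P278549 in tumor 6 is not particular to that probe. Genes such as Tob1 and Cdk4 also read far below the pool there.

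**Figure D3:**
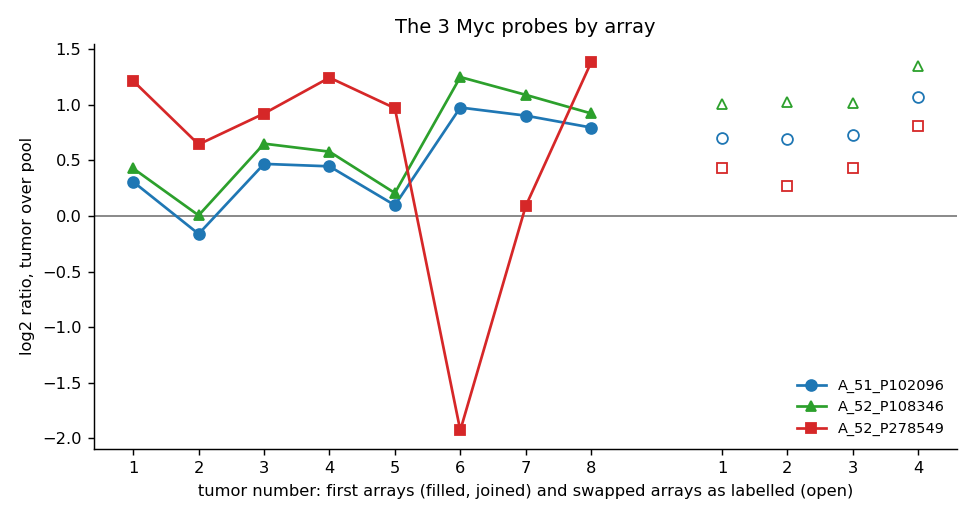
Log2 ratio of tumor over pool (vertical axis) for the 3 Myc probes, on first arrays 1 to 8 (filled, joined only to guide the eye) and the swapped arrays labelled 1 to 4 (open). Both probes nearest to each other run together, and the probe that starts 591 bases upstream falls to -1.93 in tumor 6.

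Fos, Jun and Egr2 had their highest first-array values in tumor 3 or 6. So did the brightest probes of Fosb, Fosl1, Fosl2, Egr1 and Myc, so this does not set Fos, Jun and Egr2 apart. For Fos, Jun and Egr2 only, the part of the promoter next to the transcription start is shown, where elements that respond to growth factor signals can lie. The table of RefSeq promoters used here (GRCm38.p6) was matched for 6 of the 10 genes. Fos lies at chr12:85473640-85473889 (+ strand), Jun at chr4:95052223-95052472 (- strand) and Egr2 at chr10:67537619-67537868 (+ strand). Each line gives the 250 bases before a listed start. Egr2 has more than 1 listed start, and the bases before 1 of them are shown, so its motifs belong to that start. Elements farther upstream are not shown, so the lack of a motif, such as the CArG box in Fos, holds for these bases only. Capitals mark TGACG (the core of a CRE, the element that CREB factors bind), TATAAA (a basal promoter element), TGACATCA (an AP-1-like element) and the CArG box, which SRF binds, searched on both strands.
Fos: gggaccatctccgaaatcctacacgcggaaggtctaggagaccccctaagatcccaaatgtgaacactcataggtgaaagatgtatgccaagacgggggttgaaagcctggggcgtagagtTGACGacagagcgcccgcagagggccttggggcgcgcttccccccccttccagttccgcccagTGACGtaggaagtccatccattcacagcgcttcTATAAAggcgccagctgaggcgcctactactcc
Jun: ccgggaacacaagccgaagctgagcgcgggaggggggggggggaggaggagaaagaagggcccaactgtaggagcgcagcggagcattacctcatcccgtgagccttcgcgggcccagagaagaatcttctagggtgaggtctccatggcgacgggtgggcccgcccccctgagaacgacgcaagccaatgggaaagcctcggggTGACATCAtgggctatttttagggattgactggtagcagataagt
Egr2: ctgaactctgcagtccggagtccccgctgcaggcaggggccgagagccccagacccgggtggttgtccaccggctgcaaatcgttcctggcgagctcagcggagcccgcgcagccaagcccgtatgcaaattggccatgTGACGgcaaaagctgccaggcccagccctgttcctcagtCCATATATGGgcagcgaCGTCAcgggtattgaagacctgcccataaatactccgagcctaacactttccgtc
Fos has TGACG at -129 to -125 and at -66 to -62 from the start, and TATAAA at -33 to -28. Jun has TGACATCA at -45 to -38. Egr2 has a CArG box at -72 to -63, with TGACG at -111 to -107 and, on the other strand, at -55 to -51. Of 32851 promoters of that length, 17.8% hold TGACG, 12.4% TATAAA, 2.93% TGACATCA and 1.47% a CArG box. These are matches of letters and do not show binding.

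Across the 8 first arrays Fos was compared with each of the other 9 genes by exact permutation tests over tumors, two-sided and adjusted over the 9 relations. None passed an adjusted p of 0.05. Fos and Jun had r = 0.754 (exact permutation p = 0.0314, adjusted p = 0.14) and rho = 0.571 (exact permutation p = 0.151, adjusted p = 0.751). Fos and Egr2 had r = 0.735 (exact permutation p = 0.0399, adjusted p = 0.14) and rho = 0.381 (exact permutation p = 0.36, adjusted p = 0.751). Both rested on tumors 3 and 6, the farthest from the median of Fos: without them r was 0.176 for Jun and -0.301 for Egr2 (n = 6). For Fos and Fosl1, r was 0.789 over 7 tumors (exact permutation p = 0.0466, adjusted p = 0.14) and rho was 0.321 (exact permutation p = 0.498, adjusted p = 0.751). Fos and Egr1 had r = 0.620 (exact permutation p = 0.103, adjusted p = 0.231), and r was 0.752 without tumors 3 and 6 (exact permutation p = 0.0819, adjusted p = 0.191). Fos and Fosb turned from r = 0.346 over 8 tumors to r = -0.935 over 6 (exact permutation p = 0.00556, adjusted p = 0.0389 over 7 relations). Each slide holds 4 of the first arrays, too few for a correlation within a slide.

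Myc followed none of the other 9 genes past the threshold. The r largest in size was -0.582, with Junb over 7 tumors (exact permutation p = 0.166, adjusted p = 0.747). There rho was -0.571 (exact permutation p = 0.2, adjusted p = 0.481). The highest positive r of Myc was 0.570 with Egr1 (exact permutation p = 0.133, adjusted p = 0.747), with rho = 0.595 (exact permutation p = 0.132, adjusted p = 0.481). Without tumors 2 and 6 the r with Egr1 was 0.223. Its r with Fos was 0.186 (exact permutation p = 0.652, adjusted p = 0.838). All of these ratios share the pool.

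Tumors 3 and 6 differed in the markers of other cells. On the first array of tumor 3 the median log2 ratio was 3.77 for the fibroblast list, 4.19 for the skeletal muscle list, 2.64 for myoepithelium, 1.75 for leukocytes, 1.30 for adipocytes and 1.32 for endothelium. In tumor 6 these medians were 0.72, 0.34, 0.03, 0.28, -0.87 and -0.51. The fibroblast median lay between -1.46 and -0.06 in the other 6 tumors. Tumor 7 had the highest leukocyte median, 2.46, and read -0.25 for Fos. Luminal epithelial markers (Krt8, Krt18, Krt19, Epcam and Cdh1) were well above background for both RNAs on all 12 arrays, with a list median between 0.55 and 2.10 in every tumor. Over the 8 tumors limma called 17.2% of all genes, 6.61% higher and 10.6% lower. It called 0 of 6 fibroblast, 0 of 5 endothelial and 0 of 4 adipocyte markers. At an unadjusted p under 0.05 it was 1 endothelial marker, lower, against 18.9% of all genes lower. Higher were 1 of 4 muscle markers (Mylpf), 2 of 5 myoepithelial ones (Krt5 and Krt14) and 2 of 5 luminal ones (Krt8 and Epcam), and 1 of 10 leukocyte markers was lower (Cd3e, measured in 4 tumors). These 5 higher calls were lost in the dye fit, at limma adjusted p-values of 0.258 for Mylpf, 0.0718 and 0.249 for Krt5 and Krt14, and 0.470 and 0.666 for Krt8 and Epcam, while Cdh1 was called higher (0.00816). The part of these cells in the Fos and Egr2 readings was not tested, and in whole tumors more cells of a type and more RNA per cell cannot be told apart.

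**Figure D4:**
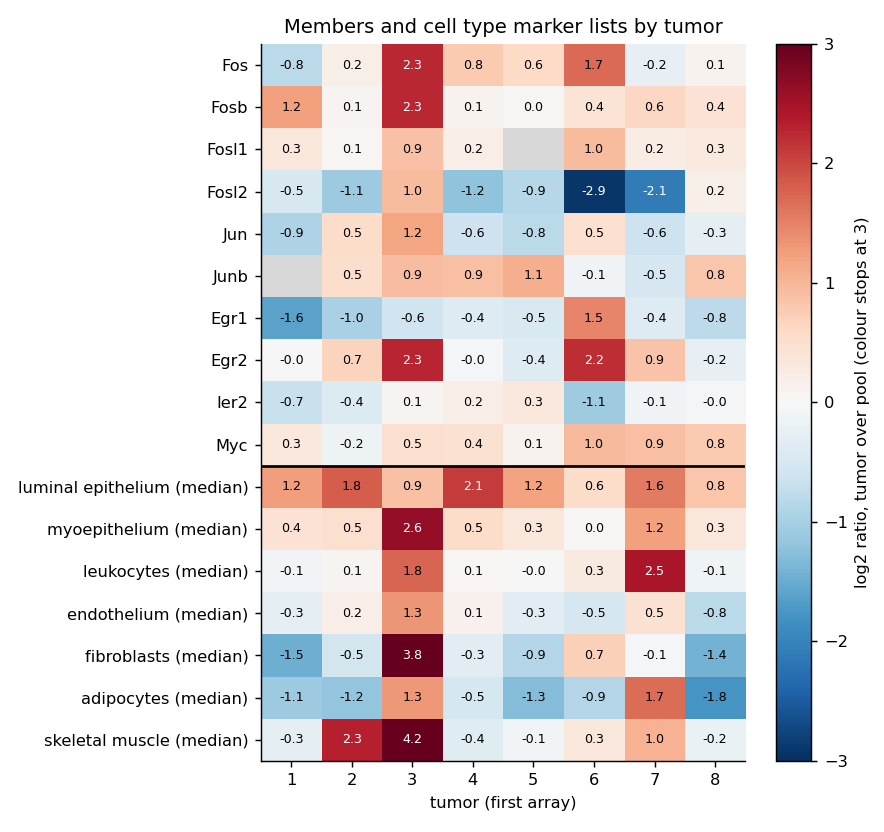
Log2 ratio of tumor over pool on the first array of each tumor (columns 1 to 8) for the 10 genes (rows above the line) and the median of each cell type marker list (rows below it). Red is above and blue below the pool, grey marks a spot left out, and the colour stops at 3 in either direction. Tumor 3 is red for Fos, Fosb and Egr2 and for the fibroblast (3.77) and muscle (4.19) lists.

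The genes whose first-array pattern was most like that of Fos, among 8569 genes with an SD of at least 0.5, were Nfil3 (r = 0.977), E330037G11Rik (0.975), Reg1 (0.971), Zfp521 (0.956) and Radil (0.950), and 34 genes reached r of 0.9. Nfil3 encodes a basic leucine zipper repressor. It read 1.42 in tumor 3, 0.52 in tumor 6 and -1.41 in tumor 1, the order Fos has there. For Myc they were Dlx4 (r = 0.936), Plin5 (0.935), Coro2b (0.931), Tlk1 (0.927) and Hnrnpd (0.924), and 11 genes reached r of 0.9. Dlx4 is a homeobox gene, Plin5 a lipid droplet gene and Hnrnpd encodes an RNA-binding protein that acts on unstable messenger RNAs. These correlations are over 8 tumors that share the pool and are the highest of many, and carry no test.

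Of 26 other immediate early genes tested, 3 were called higher, 4 lower and 19 not called, with a list median of -0.18 against -0.02 for all genes. That is 26.9% called, against 17.2% of all genes. The lower calls rest on the scaling: with median centring 5 were called higher and 0 lower, against 11.8% and 4.78% of all genes. Arc, a synaptic early gene, averaged 1.06 ± 0.85 and Atf3, a stress-induced bZIP factor, 0.74 ± 0.30 (SD, n = 8; limma adjusted p = 0.0254 and 0.00407). Atf3 was above the pool in every tumor, from 0.29 to 1.35, and was called in the dye fit (0.57, limma adjusted p = 0.0195). Arc was not called there (limma adjusted p = 0.0631). The nuclear receptor gene Nr4a1 averaged -0.74 ± 0.49 and the kinase gene Sgk1 -0.72 ± 0.50 (SD, n = 8; limma adjusted p = 0.0154 and 0.0184). With median centring they stood at 0.00 and -0.13, and neither was called in the dye fit (limma adjusted p = 0.0553 and 0.192). Called genes of the list in the dye fit numbered 2 higher and 1 lower.

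Of 13 AP-1 partners tested outside the 10 genes, 2 were called higher, 1 lower and 10 not called, with a list median of -0.05. That is 23.1% called, against 17.2% of all genes. With median centring 2 were higher and 0 lower, against 11.8% and 4.78% of all genes. Jund, the Jun protein often seen in resting cells, averaged -0.75 ± 0.31, below the pool in 8 of 8 tumors (limma adjusted p = 0.00434, and 0.0286 in the dye fit). Median centring put it at -0.16, where it was not called (limma adjusted p = 0.646). Batf2, an interferon-induced partner, averaged 1.15 ± 0.74 (limma adjusted p = 0.0118) and Batf3, known from dendritic cells, 0.57 ± 0.47 (limma adjusted p = 0.038; SD, n = 8 each). In the dye fit Batf2 was called (limma adjusted p = 0.0303) and Batf3 was not (0.304).

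Of 12 tested regulators of Fos and Egr1, with a list median of -0.09, 2 were higher and 3 lower at an unadjusted limma p under 0.05. Of all genes, 14.3% were higher and 18.9% lower at that threshold. After adjustment limma called 0 higher and 3 lower, and 9 were not called. The 3 were Creb1, which binds the CRE, at -1.27 ± 1.08, Foxo1, a forkhead factor under AKT control, at -0.57 ± 0.23, and Nab2, the corepressor of Egr1, at -0.45 ± 0.24 (SD, n = 8). Their limma adjusted p-values were 0.0304, 0.00635 and 0.0181, and 0.0337, 0.0130 and 0.128 in the dye fit. The other Creb1 probes gave 0.38 and 0.29, so Creb1 has no settled direction. With median centring Foxo1 stood at -0.04 and Nab2 at -0.10, and neither was called. The share of the list called in the main fit was 25%, against 17.2% of all genes.

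Of 23 tested AP-1 and Egr1 targets, 2 were higher, 2 lower and 19 not called, and the list median was 0.11. That is 17.4% called, against 17.2% of all genes. With median centring 5 were higher and 0 lower, against 11.8% and 4.78% of all genes. The collagenase gene Mmp13 averaged 0.89 ± 0.58 and the chemokine gene Ccl2 0.69 ± 0.44 (SD, n = 8; limma adjusted p = 0.0139 and 0.0154). Both were called in the dye fit as well (limma adjusted p = 0.0252 and 0.0326). The urokinase gene Plau averaged -0.93 ± 0.88 and the tissue factor gene F3 -0.66 ± 0.43 (SD, n = 8; limma adjusted p = 0.047 and 0.0172). Plau was not called in the dye fit (limma adjusted p = 0.251), and its other probe gave -0.28 (limma adjusted p = 0.287 over probes). The other F3 probe gave -0.64, and median centring put F3 at -0.16 (limma adjusted p = 0.606).

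Among 14 tested partners of Myc, Mycn was called lower by limma and 13 were not called, with a list median of -0.25. At an unadjusted limma p under 0.05, 2 were higher and 3 lower, against 14.3% and 18.9% of all genes. The called share was 7.1%, against 17.2% of all genes. Mycn, the Myc relative of embryonic and neural tissue, averaged -1.58 ± 0.54, below the pool in 8 of 8 tumors, from -2.25 in tumor 5 to -0.64 in tumor 6 (limma adjusted p = 0.00116). Its other probe gave -0.64 (limma adjusted p = 0.0136 over probes). In the dye fit Mycn stood at -1.30 and missed the threshold (limma adjusted p = 0.051).

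Of 40 tested Myc targets, 7 were higher, 0 lower and 33 not called, that is 17.5% against 6.61% of all genes called higher, with a list median of 0.22. This list, like the others, was chosen with earlier results of these data known. Counting calls in either direction, the share was 17.5% against 17.2% of all genes. At an unadjusted limma p under 0.05, 16 were higher and 1 lower, against 14.3% of all genes higher and 18.9% lower. With median centring 20 of the 40 were called higher and 0 lower, against 11.8% of all genes higher. That scaling also moved the median of all genes from -0.02 to 0.16. It moved the median of the 128 genes of all lists from 0.04 to 0.37. In the dye fit 5 were higher and 0 lower, against 3.56% of all genes higher. Ddx18, an RNA helicase of ribosome assembly, averaged 0.51 ± 0.13 and lay between 0.35 and 0.68 in all 8 tumors (limma adjusted p = 0.00448, and 0.00774 in the dye fit). Cad, which encodes the first enzymes of pyrimidine synthesis, averaged 0.67 ± 0.28 (limma adjusted p = 0.00517), and its other probes gave 0.28 and 0.59. The replication gene Mcm5 averaged 0.58 ± 0.46 (limma adjusted p = 0.033) and read -0.29 in tumor 1. Eif4a1, a translation initiation helicase, averaged 0.83 ± 0.50 (limma adjusted p = 0.011; SD, n = 8 for each of the 4), while its other probes gave 0.78 and -0.46. In the dye fit Cad was called (limma adjusted p = 0.0145), and Mcm5 and Eif4a1 were not (0.0678 and 0.449).

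Scaling moved the whole table. Median centring in place of loess put the median of all genes at 0.16 instead of -0.02, and the share of called genes that were higher at 71.1% instead of 38.4%. Among the 10 genes, median centring took Fos to 1.18 (limma adjusted p = 0.0325), which is past the threshold, and Myc to 1.07 (limma adjusted p = 0.0174), while Fosb stood at 0.58 (limma adjusted p = 0.0278).

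**Figure D5:**
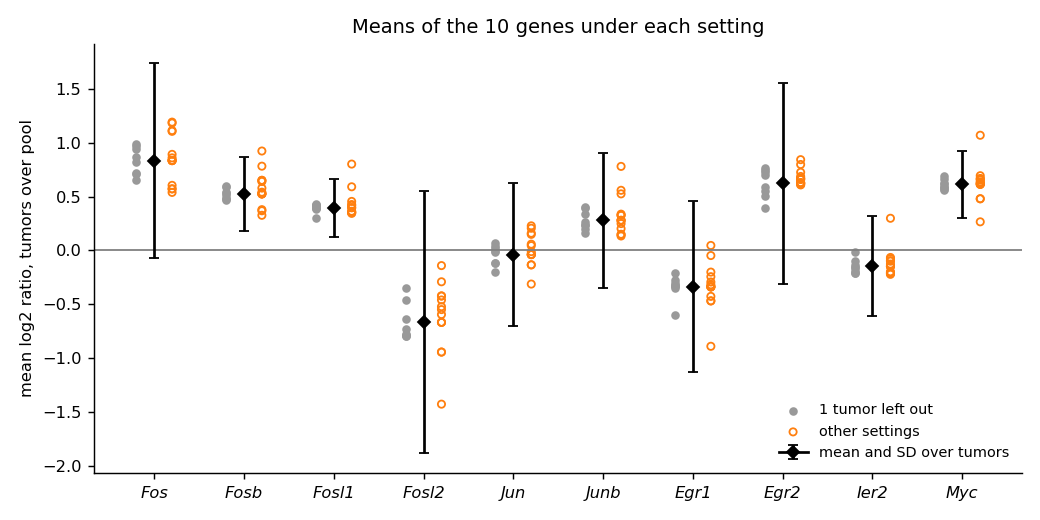
Mean log2 ratio over tumors (vertical axis) for the 10 genes. Diamonds with bars are the mean and SD over tumors, grey points the means with 1 tumor left out, and open circles those under the other settings. Every point of Myc, from 0.27 to 1.07, and of Fos lies above 0, while the points of Jun fall on both sides.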

How the data were processed

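Feature Extraction 9.5.3.1 quantified the spots, per the file headers, on a design whose probe coordinates are in mm7. The mean foreground and median background intensity of each spot were deposited, not normalized. The processed intensities had background subtracted and dyes normalized, per the file headers, and the deposited log10 ratio is red over green of them. Deposited flags, other values of 0 or 1, mark spots well above background, saturated or outlying. The authors also deposited a log2 value table whose normalization and centring are not given in the sources used here; it served as an alternative and correlated with the ratios used here at 0.826 to 0.988.

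Intensities were corrected by normexp (offset 50) and loess, giving the 1639 control spots of an array no weight (R 4.3.3 with limma 3.58.1 and the package data.table, version 1.17.8). Outlier spots (0.47% to 13.7% of an array) were left out, saturated ones (at most 3) kept, and ratios turned to tumor over pool. Spots of a probe were averaged. The filter kept 30807 of 41174 probes, those that rose well above background in either channel in 4 or more tumors (1 array sufficed), and the brightest kept probe represents a gene. Names came from RefSeq through the accession (22951 probes), symbol (6659) or older symbol (3109), and otherwise from the file (8455). Either channel was well above background at 70.1% to 79.3% of spots; the number of arrays limits the precision. Scripts were tested on simulated data. Correlations used exact permutation in scipy 1.17.1 under Python 3.11.15.

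All 10 genes are named with every probe, from each list the 4 called genes with the largest mean in size, and for Fos and Myc the 5 genes most correlated over first arrays among those with an SD of at least 0.5. The genes, the lists and the markers were chosen with earlier results of these data known. Alternatives were other normalizations and filters, all probes averaged, the first arrays, dye-term fits, slide as a block or alone, and each tumor left out by label.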

Additional observations from a re-analysis of the deposited data

Results flagged for a closer look

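In 2 of 15 probes a first array stood far from the other 7, by a gap above Dixon's critical value for 8 values; chance alone flags about 1 in 20 groups. Both were on the first array of tumor 6. Egr1 read 1.462 there, with a gap of 0.604 of the whole range (critical value 0.526). The Myc probe A_52_P278549 read -1.928, with a gap of 0.609 of the range. Genes outside these probes also read far below the pool on that array, such as Tob1 (-3.51) and Cdk4 (-3.43).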

How the results depend on the processing

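Of all genes tested, 3500 were called. The count was 1080 within the slide of tumors 1 to 4, 202 within that of tumors 5 to 8, 1845 with a dye term and best matches among tumors 1 to 4, 1636 with best matches among all 8, and 1960 (without tumor 4) to 4541 (without tumor 6) with a tumor left out; it was 2234 without tumor 8. At an unadjusted p under 0.05 it was 6758. The count of the 10 genes called, 2, was 1 with first arrays only or with slide as a block, 0 within either slide (where limma fitted 4 arrays each), and 1 to 4 with a tumor left out: 4 without tumor 6, when Egr1 and Fosl1 joined, and 1 without tumor 1, 2 or 3, when Fosb was lost. It was 3 with Feature Extraction signals, median centring, the authors' value table, no filter on dim probes or outlier spots kept. In these settings 3270 of 20314, 3361 of 20314, 4012 of 20401, 3613 of 27591 and 4073 of 20404 genes were called. The count over all genes was 4346 of 20173 with first arrays only and 4182 of 20173 with slide as a block. Listed genes called were 25 (14 higher, 11 lower), against 37 with median centring (35 higher, 2 lower), 39 with a dye term and labelled pairs, 15 with best matches among all 8 tumors, 6 and 0 within the slides, and 14 to 32 with a tumor left out (14 without tumor 4, 16 without tumor 7 or 8). Jun changed sign, to 0.0586 with Feature Extraction signals, 0.23 with median centring, 0.15, 0.21 and 0.16 in the dye-term fits (labelled pairs, best of tumors 1 to 4, best of 8), 0.045 within the slide of tumors 1 to 4, and -0.1965 to 0.0728 with a tumor left out. Median centring turned Egr1 to 0.0468 and Ier2 to 0.30. Of relations with Fos, 1 passed without tumors 3 and 6, that with Fosb (r = -0.935). Myc was called in 12 of 14 settings and Fos in 4 of 14. Of the settings counted here, the dye-term fit with labelled pairs treated the 12 arrays as nearly independent. Its p-values may be too small. The causes were not tested. No paired analysis was possible because there is 1 group of tumors and no numbered control tumor to pair with them; arrays of the same tumor were joined in the dye-term fits.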
